A study of Mus musculus with 8 samples.

Results

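WNT ligands, their frizzled receptors and the secreted antagonists of the SFRP and DKK families were followed in brown fat, the tissue in which mice burn fuel to make heat. The members are the protein-coding genes whose symbol is Wnt, Fzd, Sfrp or Dkk followed by a digit. There were 37 of them among 54532 genes in the deposited table, of which 22046 were protein coding. They comprised 19 WNT ligands, 10 frizzled receptors, 4 secreted frizzled-related proteins and 4 dickkopfs. RNA was sequenced from 4 wild-type mice (WT) and 4 mice labelled TG (CLCF1-ATG), each group numbered 1, 2, 3 and 5. The transgene concerns CLCF1, an interleukin-6 type cytokine whose effect on thermogenesis and mitochondria in brown adipocytes is the subject of the series, and the comparison made here was TG against WT. Not given in the sources used here are the age, sex and strain of the mice, their housing temperature, and the promoter and cell type that drive the transgene.

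WNT proteins are secreted lipid-modified signals. They bind the cysteine-rich domain of a frizzled, a receptor that spans the membrane, and the co-receptors LRP5 and LRP6 join the complex. In the canonical branch the beta-catenin destruction complex is then held back and beta-catenin acts with TCF/LEF factors on transcription, while other branches act on cell polarity and calcium. SFRPs carry a frizzled-like domain and can bind the ligands, whereas the classical dickkopfs bind LRP5 and LRP6. In fat, canonical WNT signalling is known as a brake on the formation of adipocytes from precursors.

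The promoters of the most abundant receptors and of 1 ligand are shown, because these receptors have the highest levels of all members and both rose, and because the ligand's promoter is the only one printed that holds a motif of the pathway. RefSeq promoter windows on GRCm38.p6, each 250 bases before and 50 bases after a gene's start, were found for 25 of the 37 members, in 28 windows. The bases before the start are printed 5′ to 3′ on the gene's strand, in lower case. Capitals mark a match to ATCAAAG, the core of the TCF/LEF site, searched on both strands.
Fzd4, chr7:89404116-89404365, plus strand: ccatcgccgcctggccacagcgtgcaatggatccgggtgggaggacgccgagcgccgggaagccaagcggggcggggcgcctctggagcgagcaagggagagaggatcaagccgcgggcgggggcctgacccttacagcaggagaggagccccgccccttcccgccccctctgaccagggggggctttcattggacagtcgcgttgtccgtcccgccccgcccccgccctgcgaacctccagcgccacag
Fzd1, chr5:4758217-4758466, minus strand: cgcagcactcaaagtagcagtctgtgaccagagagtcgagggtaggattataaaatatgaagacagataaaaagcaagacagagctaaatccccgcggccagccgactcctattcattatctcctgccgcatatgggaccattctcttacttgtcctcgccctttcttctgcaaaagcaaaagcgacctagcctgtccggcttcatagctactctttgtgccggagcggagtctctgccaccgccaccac
Wnt11, chr7:98834862-98835111, plus strand: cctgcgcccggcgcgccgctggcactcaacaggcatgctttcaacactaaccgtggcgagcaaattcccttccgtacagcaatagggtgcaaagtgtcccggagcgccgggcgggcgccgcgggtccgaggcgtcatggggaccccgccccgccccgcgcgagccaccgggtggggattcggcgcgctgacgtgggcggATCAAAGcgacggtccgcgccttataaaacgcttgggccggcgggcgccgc
The match in Wnt11 began 51 bases before the start. ATCAAAG was found in 2 of the 28 windows (7.14%) and in 3.73% of all 32851 windows. The 2 windows were those of 1 of 2 Wnt11 starts, the one printed, and of 1 of 3 Wnt5b starts. A STAT-type motif, TTCNNNGAA on both strands, was sought because CLCF1 signals through STAT3. It was in 1 window (3.57%), another Wnt5b start, against 8.30% of all windows. The 28 windows were rich in G and C, with a median of 68.7% against 52.7% over all windows. Among the printed promoters the receptors differed, since the Fzd4 window held 72.7% G and C and the Fzd1 window 54.0%.

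The libraries differed between genotypes in ways that touch every gene. Clcf1 checks the labels, and stood at 0.434 to 3.40 FPKM in WT and 78.7 to 89.9 FPKM in TG (exact two-sided permutation p = 0.0286, the smallest that 4 against 4 allows). Between 13734231 and 15751302 reads could be recovered for each WT library, and between 18494022 and 20183840 for each TG library. The share of mitochondrial transcripts was 29.4% ± 5.78 among WT reads against 6.87% ± 0.547 among TG reads (mean ± SD of 4 mice, as throughout, exact permutation p = 0.0286). Of 12508 genes tested, 22.3% rose and 21.8% fell in TG, 44.1% in all. Among marker lists, 7 of 8 adipocyte markers rose and 6 of 8 brown adipocyte markers fell. Ucp1, the uncoupling protein that defines brown fat, was at 1420 ± 371 FPKM in WT and 82.8 ± 45.3 in TG. All 7 tested endothelial markers fell and their summed level went from 128–283 to 22.5–42.0 FPKM, and 6 of 8 mural markers fell with 1 rising. Of 12 progenitor and fibroblast markers 3 rose and 2 fell, 4 of 8 macrophage markers rose, 1 of 3 tested lymphocyte markers rose, and 1 of 4 tested Schwann and nerve markers fell, with Th at 0 in every library. No mesothelial marker was tested. None of 6 tested skeletal muscle markers passed, but their sum was 2450 FPKM in WT 2 and 1379 in TG 5 against 11.5 to 226 in the other libraries. For each named gene whose call is lost without this pair of libraries, the value is given with it below. In whole tissue, fewer cells of a type and less RNA per cell cannot be told apart.

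In TG fat 3 of 7 tested frizzleds rose (42.9%, against 22.3% of all genes) and 1 fell (against 21.8%). Most ligands were near the limit of detection in both genotypes. FPKM are fragments per kilobase of transcript, scaled per library. The test used log2(FPKM + 1) in limma, with Benjamini-Hochberg adjustment over all 12508 genes and a threshold of 0.05. A gene entered when 4 or more libraries reached 0.5 FPKM, which 14 of the 37 members did. Reads were seen for 16 more members that were not tested, and 7 had no read in any library. Of the 14 tested, 7 rose (50%, against 22.3% of all genes), 1 fell (against 21.8%) and 6 did not pass. The risers were Wnt5a, Fzd1, Fzd3, Fzd4, Sfrp1, Sfrp2 and Dkk3, and the faller was Fzd6. The TG libraries lay wholly above WT for 5 of them and wholly below for 1, where 22.1% and 20.5% of all genes did (42.6% together). Fzd3 passed the filter through TG alone and Fzd6 through WT alone, so these had to differ, and the counts describe only the members that could be measured. With no filter on low values 5 members rose and 1 fell, where 9.59% and 9.22% of genes did. Leaving out WT 2 and TG 5, the libraries with the most muscle transcripts, 5 members rose and 1 fell, where 16.1% and 16.6% of all genes did. The calls lost were those of Sfrp2 (adjusted p = 0.0683) and Dkk3 (0.107).

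**Figure D1:**
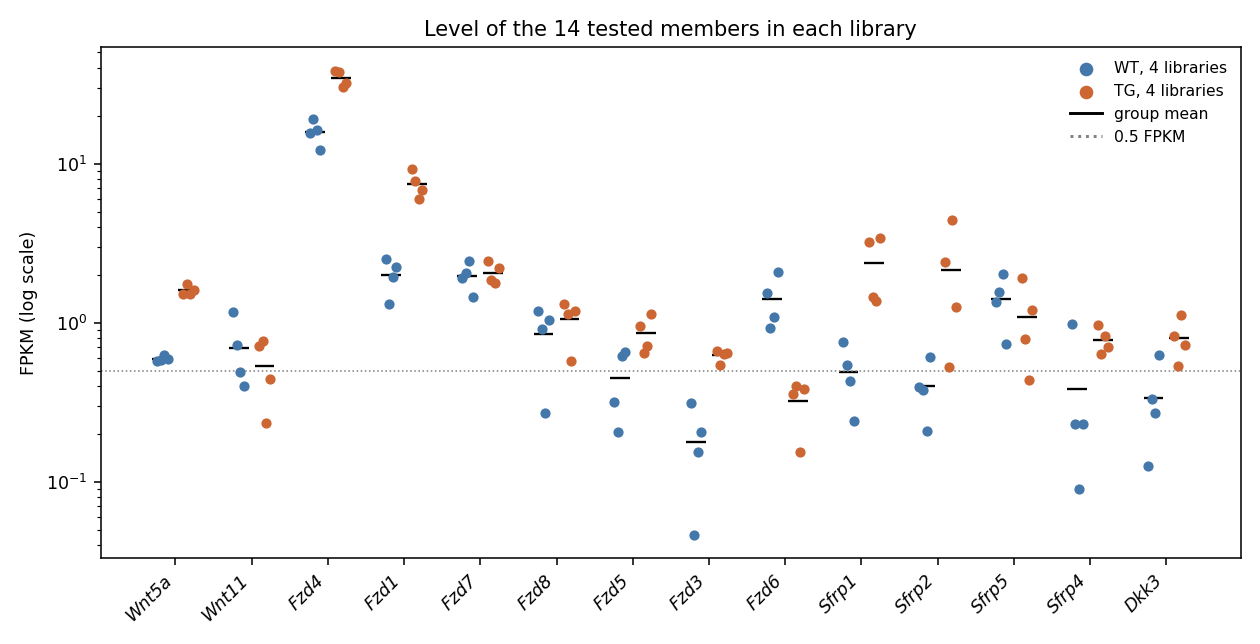
FPKM on a log axis of the 14 tested members in each of 4 WT and 4 TG libraries, with the group mean as a bar and the 0.5 FPKM level dotted. Fzd4 stood above all other members in both groups, and the groups were separate for Wnt5a, Fzd4, Fzd1, Fzd3, Fzd6 and Sfrp1. For Fzd3 and Fzd6 the filter fixed that separation.

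Among the ligands, Wnt5a was the one that could be tested and rose. Wnt5a, which signals largely outside the beta-catenin branch, lies on chromosome 14 from 28504750 to 28527448 on the plus strand of mm10. It measured 0.575, 0.580, 0.625 and 0.592 FPKM in WT 1, 2, 3 and 5, and 1.52, 1.76, 1.51 and 1.60 FPKM in TG 1, 2, 3 and 5. The replicates were tight within each group and the groups were far apart. The means were 0.593 ± 0.0225 and 1.60 ± 0.117 FPKM, a ratio of 2.70, and the log2 change was 0.70 (SE 0.0914, limma adjusted p = 0.000255). An antisense transcript overlaps Wnt5a, and it held 10 reads over all 8 libraries, against 232 for Wnt5a in WT and 1132 in TG.

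Wnt11, another ligand linked to the polarity branch and the one whose promoter is printed above, did not pass. It measured 1.17, 0.719, 0.491 and 0.401 FPKM in WT and 0.710, 0.765, 0.233 and 0.443 FPKM in TG. The groups overlapped, and the change was -0.13 (95% interval -0.52 to 0.25, adjusted p = 0.55). Wnt5a made up 24.8% ± 5.12 of the summed ligand level in WT and 43.9% ± 4.85 in TG, while Wnt11 went from 27.6% ± 9.53 to 14.1% ± 5.05. The sum over the 19 ligands was 2.45 ± 0.416 FPKM in WT and 3.68 ± 0.497 in TG. That total was below the level of Fzd4 alone in both groups.

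The other ligands were all under the filter, and Wnt9a had the most reads of them. Wnt9a, on chromosome 11, had 10, 5, 10 and 12 reads in WT and 55, 58, 31 and 32 in TG, which corresponds to 0.227 ± 0.0853 and 0.586 ± 0.206 FPKM. The groups did not overlap, but only 2 TG libraries reached 0.5 FPKM and none of WT did, so it was outside the test. Wnt8b had 1 read in WT and 22 in TG, a ratio of 12.1 after scaling to the libraries' divisors (95% counting interval 1.96 to 499.8). The Wnt8b groups overlapped, with TG 3 at 0.0130 FPKM below WT 5 at 0.0259 FPKM. Wnt16, with 0 reads in WT and 13 in TG, was at least 2.39-fold higher in TG when WT was set at the floor of 3 reads over the group, with 1 TG library also at 0. A fit by limma's voom on the recovered reads without a filter, chosen after the data were seen, called Wnt9a (log2 change 1.75, adjusted p = 0.0169) and Wnt8b (2.47, adjusted p = 0.0197) but not Wnt16 (adjusted p = 0.11). That fit called 21.6% of 26296 genes higher and 6.39% lower. The limma fit on log2(FPKM + 1) with no filter on low values called neither Wnt9a (adjusted p = 0.0529) nor Wnt8b (0.0796).

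The remaining ligands had at most 96 reads each over the 8 libraries. Wnt10b, a canonical ligand known for holding back fat cell formation, had 28 reads in WT and 54 in TG, or 0.173 ± 0.143 and 0.173 ± 0.0935 FPKM. Wnt2 and Wnt6 had 16 and 14 reads in WT and 36 and 25 in TG. Wnt1, Wnt2b, Wnt3 and Wnt10a had 11, 16, 4 and 4 reads over all 8 libraries, and Wnt4 had 23 in WT and 24 in TG. Wnt5b, with 37 and 59 reads, overlaps Fbxl14 on the other strand, which held 2530 reads, and it is not known from the labels whether counting used strand. No read was found for Wnt3a, Wnt7a, Wnt7b, Wnt8a or Wnt9b, which allows a level of up to 0.0123 FPKM (Wnt7b) to 0.0344 FPKM (Wnt8a) over the WT group at the floor of 3 reads.

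Several ligand genes sit side by side with no gene between them. Wnt9a, with 213 reads in all, lies 16.2 kb from Wnt3a, which had none. Wnt10b lies 11.7 kb from Wnt1, with 82 and 11 reads. The Wnt6 and Wnt10a genes are 6.19 kb apart and held 39 and 4 reads. Wnt9b and Wnt3, 24.3 kb apart, held 0 and 4.

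The frizzled receptors formed the most abundant of the families, and Fzd4 led it in every library. Fzd4, a receptor for WNT ligands and for norrin that is known from the vasculature of the retina, lies on chromosome 7 from 89404355 to 89413134. Its level was 15.5, 19.1, 16.2 and 12.1 FPKM in WT and 38.5, 37.5, 30.5 and 32 FPKM in TG. Every TG library exceeded every WT library. The means were 15.7 ± 2.87 and 34.6 ± 3.96 FPKM, a ratio of 2.20, and the log2 change was 1.10 (SE 0.143, adjusted p = 0.000262). These values rest on 5335 reads in WT and 21117 in TG, so counting error is small. Fzd4 rose in tissue whose endothelial markers fell 7 of 7, and the level of Fzd4 per cell type was not measured.

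Fzd1 had the largest change of the receptors on the log2(FPKM + 1) scale. With a pseudocount of 0.01 the changes of Fzd6 (-2.11) and Fzd3 (1.99) were larger than that of Fzd1 (1.92), and by voom that of Fzd3 (2.48) was larger than that of Fzd1 (2.35). Fzd1 is a gene of 1 exon on chromosome 5, from 4753839 to 4758035 on the minus strand. It measured 2.51, 1.31, 1.94 and 2.23 FPKM in WT and 9.27, 7.80, 5.98 and 6.85 FPKM in TG. The lowest TG library was above the highest WT library by more than the spread within either group. The ratio of the means, 2.0 ± 0.513 and 7.47 ± 1.41 FPKM, was 3.75, and the log2 change was 1.5 (SE 0.163, adjusted p = 8.64e-05).

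Fzd6 went the other way. This receptor, known for its part in the polarity of hair and skin, lies on chromosome 15 from 39006034 to 39038188. It measured 1.53, 0.926, 1.09 and 2.08 FPKM in WT and 0.357, 0.402, 0.154 and 0.380 FPKM in TG. All TG libraries were below all WT libraries, as they had to be, since Fzd6 passed the filter through WT alone. With no filter on low values its limma adjusted p was 0.0096. The TG mean of 0.323 ± 0.114 FPKM was 0.230 times the WT mean of 1.41 ± 0.518, and the log2 change was -0.84 (SE 0.158, adjusted p = 0.0021). Fzd6 fell although its reads came from deeper TG libraries, 141 in all against 332 in WT. The endothelial, mural and brown adipocyte marker sums fell in the same libraries, and their part in the fall of Fzd6 was not tested.

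Fzd3, the closest relative of Fzd6 in the family and a receptor of axon guidance and polarity, rose. It measured 0.312, 0.0464, 0.153 and 0.205 FPKM in WT and 0.668, 0.538, 0.639 and 0.644 FPKM in TG. The 4 TG libraries lay close together, above a scattered WT group. That separation was fixed by the filter, which Fzd3 passed through TG alone. With no filter on low values its limma adjusted p was 0.0067. The log2 change of 0.46 (SE 0.105, adjusted p = 0.0060) understates the ratio of the means, 3.48, because 1 was added to low values. Fzd3 and Fzd6 have 7 exons in the longest coding transcript of GENCODE M21, where Fzd1, Fzd2, Fzd7, Fzd8, Fzd9 and Fzd10 have 1 exon and Fzd4 and Fzd5 have 2. Because the filter fixed the directions of Fzd3 and Fzd6, they cannot show whether direction goes with exon number.

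The other 3 tested frizzleds did not pass. Fzd5 measured 0.319, 0.204, 0.620 and 0.657 FPKM in WT and 0.952, 0.649, 0.709 and 1.14 FPKM in TG, with 1 TG library inside the WT range (0.37, adjusted p = 0.063). It crossed the threshold without WT 5 (adjusted p = 0.0398), among protein-coding genes alone (0.0489) and under the scalings named below. Fzd7, a receptor known from stem and precursor cells, was at 1.97 ± 0.418 and 2.06 ± 0.315 FPKM, with a 95% interval of the log2 change from -0.25 to 0.35. Fzd8 was at 0.854 ± 0.406 and 1.05 ± 0.327 FPKM, with an interval from -0.27 to 0.59. Fzd2 had 9 reads in WT and 30 in TG and Fzd9 had 24 and 17, both under the filter, and Fzd10 had none.

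The make-up of the receptor pool shifted with these changes. Summed over the 10 frizzleds the level was 22.8 ± 2.17 FPKM in WT and 47.2 ± 5.73 in TG, a ratio of 2.07. Fzd4 held 68.5% ± 6.34 of the sum in WT and 73.4% ± 1.97 in TG, overlapping between groups. The share of Fzd1 was 8.89% ± 2.74 and 15.7% ± 1.11, and no TG library fell into the WT range. Fzd7 went from 8.59% ± 1.45 to 4.38% ± 0.513 of the pool at a similar level, and Fzd6 from 6.37% ± 2.99 to 0.676% ± 0.212. The order of receptors after Fzd4 was Fzd1, Fzd7, Fzd6 and Fzd8 by mean in WT, with Fzd1 and Fzd7 within each other's spread. It was Fzd1, Fzd7 and Fzd8 in TG, where Fzd1 stood clear of Fzd7.

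**Figure D2:**
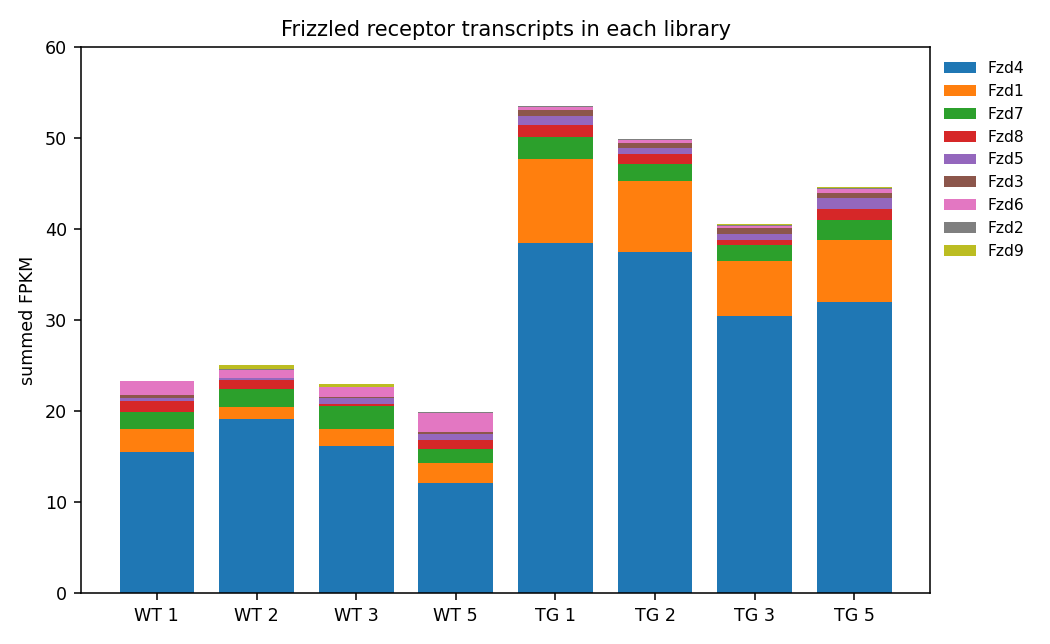
Summed FPKM of the frizzled receptors in each library, stacked by gene. The 4 TG bars reach 40.6 to 53.6 FPKM and the WT bars 19.9 to 25.1, Fzd4 forms the largest segment of each, and the Fzd6 segment of WT narrows in TG.

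Of 4 secreted frizzled-related proteins tested, 2 rose (50%, against 22.3% of all genes), and their levels were uneven between TG mice. The sum of the family was 3.47, 2.72, 2.75 and 1.81 FPKM in WT and 8.52, 3.41, 7.02 and 6.54 FPKM in TG, with TG 2 just below WT 1. Sfrp1, an antagonist that binds WNT ligands, lies on chromosome 8 from 23411502 to 23449632. It measured 0.757, 0.544, 0.430 and 0.240 FPKM in WT and 3.21, 1.46, 1.36 and 3.39 FPKM in TG. TG 1 and TG 5 were more than 2 FPKM higher than WT, and TG 2 and TG 3 were closer but still above every WT library. The log2 change was 1.12 (SE 0.227, adjusted p = 0.0033), with a ratio of means of 4.78.

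Sfrp2, a relative known from fibroblasts, spread more. Its values were 0.394, 0.380, 0.210 and 0.609 FPKM in WT and 2.42, 0.526, 4.39 and 1.26 FPKM in TG. TG 2 lay below WT 5, while TG 3 was the highest library. The mean went from 0.398 ± 0.163 to 2.15 ± 1.69 FPKM (log2 change 1.02, SE 0.329, adjusted p = 0.0306). Leaving out WT 1, WT 2, WT 3, TG 1 or TG 3 took the call away, with adjusted p from 0.0534 to 0.0796, and leaving out TG 3 lowered the change to 0.71. Leaving out TG 2 raised it to 1.32. The progenitor and fibroblast marker sum was 341–514 FPKM in WT and 713–867 in TG. Dpt, which encodes a matrix protein, accounts for that rise, since without it the sum was 217–402 FPKM in WT and 256–335 in TG. Of the 12 markers 3 rose, 2 fell and 7 did not pass, and their part in the Sfrp1 and Sfrp2 values was not tested.

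Sfrp4 and Sfrp5 did not pass. Sfrp4 measured 0.975, 0.231, 0.090 and 0.230 FPKM in WT and 0.974, 0.633, 0.827 and 0.699 in TG. WT 1 alone overlapped TG, and without it the adjusted p was 0.0042 in place of 0.097. Sfrp5, an antagonist known as an adipokine and as an inhibitor of WNT5A, measured 1.34, 1.56, 2.02 and 0.736 FPKM in WT and 1.92, 0.795, 0.438 and 1.19 in TG (-0.23, 95% interval -0.76 to 0.29, adjusted p = 0.45). Its share of the SFRP sum fell from 52.6% ± 16.3 to 17.6% ± 7.88, while that sum went from 2.69 ± 0.677 to 6.37 ± 2.15 FPKM. Sfrp5 was the highest of the family in all 4 WT libraries. Sfrp1 was the highest in TG 1, TG 2 and TG 5, and Sfrp2 in TG 3.

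Of the dickkopfs only Dkk3 was tested. Dkk3, a divergent member that does not act as a classical LRP5 and LRP6 antagonist, lies on chromosome 7 from 112116017 to 112159057. It measured 0.126, 0.332, 0.269 and 0.624 FPKM in WT and 0.824, 0.534, 1.12 and 0.727 FPKM in TG. TG 2 fell below WT 5, and the other TG libraries were above WT. The log2 change was 0.43 (SE 0.146, adjusted p = 0.0366), and the call was lost on leaving out WT 1, WT 2, WT 3, TG 1, TG 3 or TG 5 (adjusted p 0.0644 to 0.0981). The classical antagonists were nearly absent. Dkk1 had no read, Dkk2 had 8 in WT and 32 in TG, and Dkk4 had 1 in WT and none in TG.

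**Figure D3:**
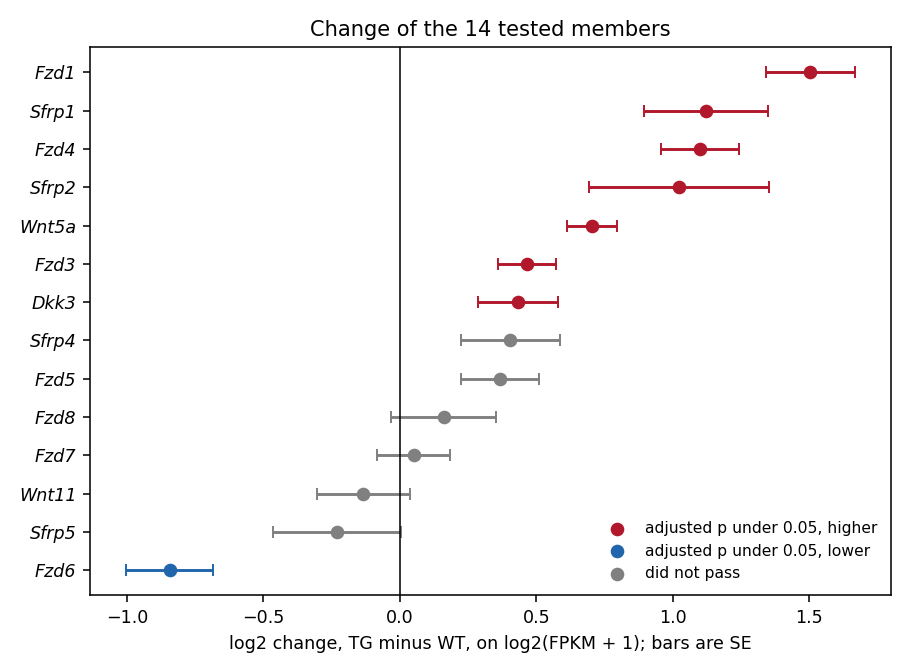
Log2 change of the 14 tested members, TG minus WT on log2(FPKM + 1), with bars for the standard error and colour for the limma adjusted p. Fzd1 is at the top with 1.5, Fzd6 at the bottom with -0.84, and 6 members in grey did not pass.

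The machinery around the ligands and receptors was examined with lists of other pathway genes. Of 124 such genes 78 were tested, and 32 rose (41.0%, against 22.3% of all genes), 11 fell (14.1%, against 21.8%) and 35 did not pass. Their median log2 change was 0.24, against 0.01 over all tested genes. Without WT 2 and TG 5 the counts were 24 and 8, where 16.1% of all genes rose and 16.6% fell. Among the 78, Lgr6, Rspo3 and Camk2b passed the filter through WT alone and Celsr2 through TG alone, so these had to differ.

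Of 4 tested genes that prepare WNT ligands for release 3 rose (75%, against 22.3% of all genes) and 1 fell (25%, against 21.8%). Porcn, the acyltransferase that adds the lipid, rose from 1.3 ± 0.517 to 3.11 ± 0.241 FPKM (0.86, adjusted p = 0.0019). Wls, the carrier that takes lipidated ligands to the surface, rose from 3.35 ± 0.250 to 10.1 ± 0.619 FPKM (1.35, adjusted p = 7.34e-06). Tmed2 rose and Tmed5 fell, both p24 cargo receptors of early secretion, with log2 changes of 0.49 and -1.31. Tmed2 no longer passed on leaving out WT 2 and TG 5 together (adjusted p = 0.0911).

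Of 5 tested co-receptors 4 rose (80%, against 22.3% of all genes) and none fell (against 21.8%). Lrp6 went from 3.01 ± 0.193 to 7.15 ± 0.669 FPKM (1.02, adjusted p = 4.38e-05) and Lrp5 from 1.22 ± 0.372 to 2.95 ± 0.601 (0.84, adjusted p = 0.0021). Gpc4, a glypican that holds ligands at the cell surface, rose by 1.26 and Ryk, an alternative WNT receptor, by 0.39. Ryk no longer passed on leaving out TG 5 (adjusted p = 0.0528), or WT 2 and TG 5 (0.115). Gpc3 did not pass (-0.38, adjusted p = 0.11), and the other 6 of the 11 genes on the list were under the filter.

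Of 4 tested genes of the R-spondin arm, which protects frizzleds from removal, 1 rose (25%, against 22.3% of all genes) and 2 fell (50%, against 21.8%). Both that fell had passed the filter through WT alone. Lgr6, an R-spondin receptor, measured 5.86, 9.13, 6.18 and 6.32 FPKM in WT and 0.0857, 0.0414, 0.0830 and 0.00637 in TG. That is a loss of nearly all signal in every TG mouse (-2.88, SE 0.135, limma adjusted p = 1.17e-06). Rspo3, a ligand of this arm, fell from 0.717 ± 0.187 to 0.130 ± 0.0726 FPKM (-0.60, adjusted p = 0.0024). Lgr4, a sister receptor, rose from 3.26 ± 1.06 to 5.34 ± 0.552 (0.60, adjusted p = 0.0179), not passing once WT 2 and TG 5 were left out (adjusted p = 0.057). Znrf3, a ligase that clears frizzleds, did not pass (0.30, adjusted p = 0.0579). S100b, the Schwann and nerve marker that passed, fell from 66.0 ± 10.9 to 3.68 ± 1.93 FPKM in the same libraries as Lgr6, and whether the falls are linked was not tested.

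Of 3 tested inhibitors outside the SFRP and DKK families 2 rose (against 22.3% of all genes) and none fell (against 21.8%). Igfbp4, a binding protein of insulin-like growth factors that can also bind frizzled and LRP6, rose from 26.3 ± 6.95 to 303.5 ± 3.72 FPKM (3.51, adjusted p = 1.12e-06). Apcdd1, a membrane inhibitor that is itself used as a readout of the canonical branch, rose from 2.40 ± 0.255 to 13.3 ± 4.03 FPKM (2.04, adjusted p = 2.46e-05). Kremen1, a dickkopf receptor, did not pass (0.11, adjusted p = 0.59), and Frzb, a relative of the SFRPs, had a mean of 0.0174 FPKM in WT and 0.0134 in TG.

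In the destruction complex and its dishevelled partners 7 of 19 tested genes rose (36.8%, against 22.3% of all genes) and 1 fell (5.26%, against 21.8%). Gsk3b, the kinase that marks beta-catenin for removal, rose from 3.17 ± 0.324 to 5.61 ± 0.653 FPKM (0.66), and Tnks, a tankyrase that turns over axin, from 1.44 ± 0.154 to 2.64 ± 0.246 (0.58). Dact1 and Cxxc5, both dishevelled-binding proteins, rose by 0.65 and 0.74. Dvl3, a dishevelled, fell from 3.31 ± 0.343 to 2.18 ± 0.310 (-0.44, adjusted p = 0.0108), and no longer passed without WT 2 and TG 5 (-0.34, adjusted p = 0.0863).

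Of the nuclear effectors 7 of 17 tested genes rose (41.2%, against 22.3% of all genes) and 2 fell (11.8%, against 21.8%). Ctnnb1, which encodes beta-catenin, went from 29.3 ± 2.10 to 37.3 ± 3.31 FPKM (0.34, adjusted p = 0.0226), a call lost without WT 2, TG 1 or TG 5 (adjusted p 0.0546 to 0.061), or WT 2 and TG 5 together (0.124). Tcf7l2, a TCF factor, rose from 1.51 ± 0.398 to 4.01 ± 0.571 (1.01, adjusted p = 0.00034). Bcl9l, a beta-catenin co-activator, rose from 1.94 ± 0.417 to 6.52 ± 1.59 (1.34), and Tbl1x and Tbl1xr1, which act with beta-catenin and in co-repressor complexes, rose by 1.25 and 0.57. Pygo1, a partner of BCL9 proteins, fell by 0.40 on the log2 scale, lost without TG 3 (adjusted p = 0.053), or WT 2 and TG 5 together (0.061). Aes, a short Groucho family protein, fell from 99.2 ± 8.75 to 66.0 ± 3.59 FPKM (-0.58).

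Of 10 tested genes used as readouts of beta-catenin 3 rose (30%), 2 fell (20%) and 5 did not pass, shares near those of all genes (22.3% and 21.8%). Axin2, the readout used most widely, measured 1.14, 1.57, 0.915 and 0.904 FPKM in WT and 0.975, 0.969, 0.588 and 1.62 in TG, with full overlap (-0.08, SE 0.167, adjusted p = 0.73). Its direction turned under 2 other scalings (0.01 and 0.14), under voom (0.25) and without WT 2 (0.02) or TG 3 (0.03), and it passed under none of the alternatives run. Wisp2, a matricellular protein of fat precursors, rose from 0.0441, 1.31, 0.313 and 1.59 FPKM in WT to 14.5, 10.5, 10.4 and 11.0 in TG (2.89). Twist1, a transcription factor, rose by 0.84, not passing once WT 2 and TG 5 were left out (adjusted p = 0.0689), and Apcdd1 is given above. Ccnd1, the cyclin D1 gene, fell from 4.06 ± 0.999 to 1.37 ± 0.510 FPKM (-1.10, adjusted p = 0.0016). Fosl1, an AP-1 subunit, measured 6.07, 19.7, 40.3 and 21.4 in WT and 4.99, 0.360, 0.692 and 2.86 in TG (-2.83, adjusted p = 0.0036).

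Of 19 tested polarity and calcium genes 6 rose (31.6%) and 3 fell (15.8%), not far from the shares of all genes (22.3% and 21.8%). Celsr2, a cadherin of the polarity core, stood at 0.413, 0.323, 0.196 and 0.334 FPKM in WT and 6.89, 8.21, 6.38 and 6.14 in TG (2.58). Plcb1 and Plcb3, phospholipases of the calcium branch, rose by 1.10 and 1.03, whereas Plcb4 fell by 1.00 on the log2 scale. Camk2d rose by 0.74 and Camk2b fell by 0.64 on the log2 scale, so that 2 calcium-dependent kinases of 1 family went apart. Rhoa, a small GTPase, rose by 0.49. Mapk8, the JNK1 gene, fell from 1.77 ± 0.127 to 1.26 ± 0.0540 FPKM (-0.29, adjusted p = 0.026), a call lost without WT 1, WT 3, TG 1, TG 2 or TG 5 (adjusted p 0.052 to 0.0675), or WT 2 and TG 5 together (0.0905).

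**Figure D4:**
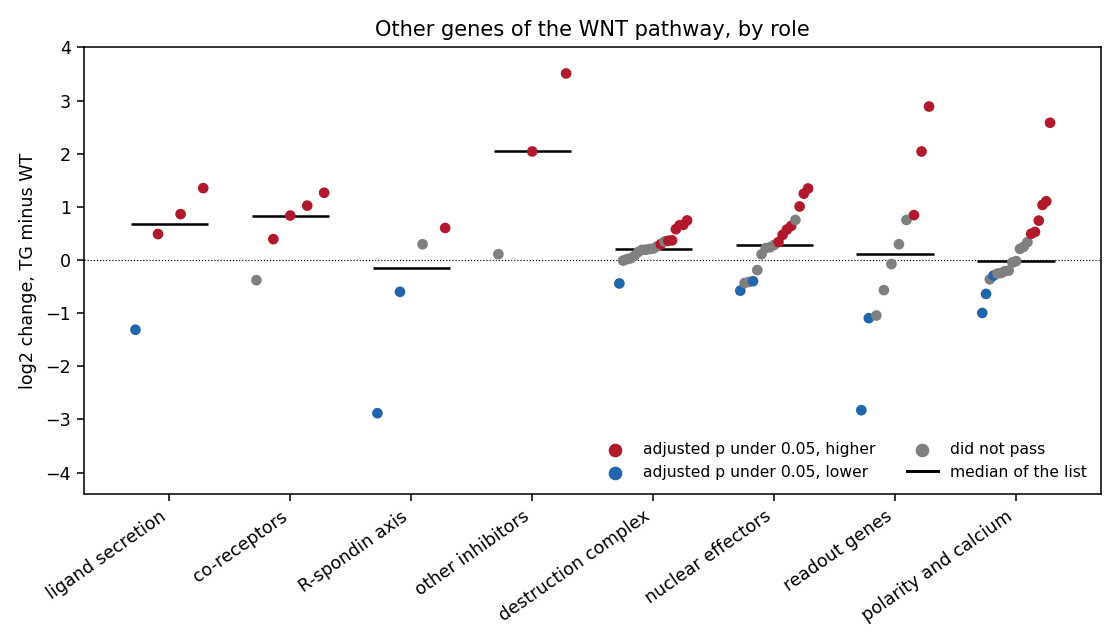
Log2 change, TG minus WT on log2(FPKM + 1), of each tested gene of the 8 pathway lists, a point per gene and a line at the list's median, with Apcdd1 and Znrf3 among those on more than 1 list. Of the co-receptors 4 of 5 and of the secretion genes 3 of 4 sit above 0, and the R-spondin, readout, and polarity and calcium genes lie on both sides.

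The scaling of the libraries matters because the genotypes differed in mitochondrial share. As deposited, the median log2 change of all tested genes was 0.01 and 50.6% of calls were higher in TG. Rescaling without the mitochondrial and most abundant genes moved that median to 0.13 (63.9% of calls higher, with 30.4% of genes called higher and 17.2% lower), and division by all recovered reads moved it to 0.32 (79.3% higher, with 44.3% of genes called higher and 11.5% lower). Under that last scaling 9 members rose and 1 fell, since Fzd5 (adjusted p = 0.0089) and Sfrp4 (0.0182) joined, and the same counts came from voom, which called 45.1% of genes higher and 11.6% lower. Fzd7 then had a change of 0.33, level with the median of all genes, and Wnt11 turned to 0.02. Fzd1, Fzd4, Wnt5a, Sfrp1 and Fzd3 stayed above the median of all genes, and Fzd6 stayed below 0, in each of the scalings run. Fzd3 and Fzd6 had entered these fits through 1 group alone, so their place here is no independent support. Among the pathway genes the falls of Dvl3, Pygo1, Aes and Mapk8 were no longer called when all reads were the divisor (adjusted p 0.12 to 0.76).

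**Figure D5:**
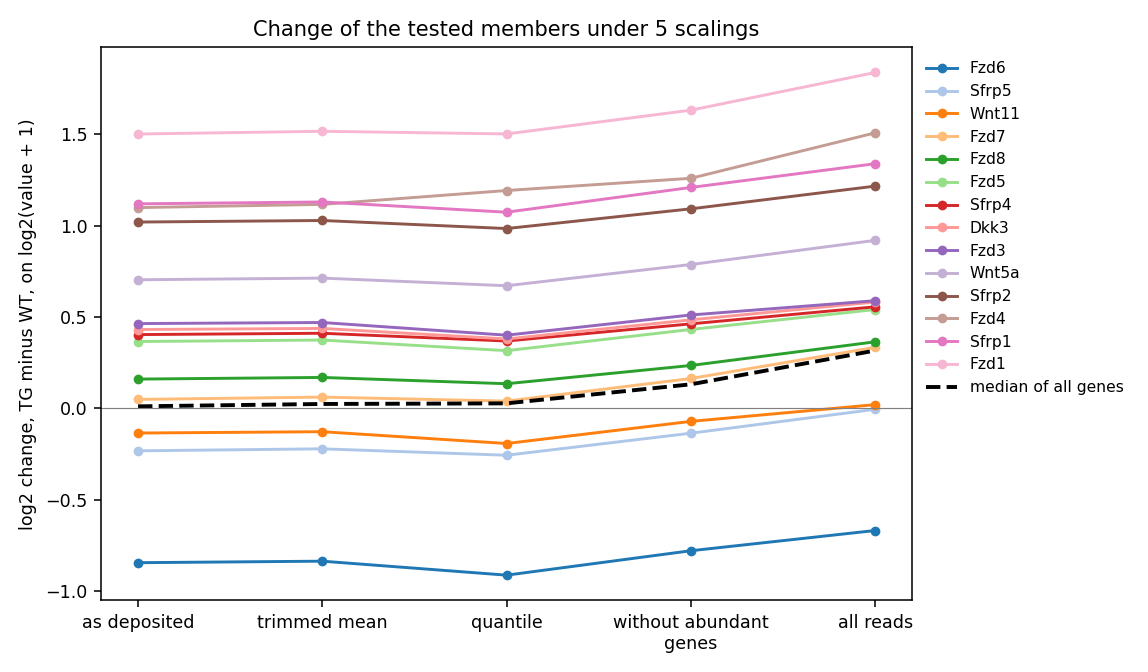
Log2 change of the 14 tested members under 5 ways of scaling the libraries, a line per gene, with the median of all tested genes dashed. The lines run nearly parallel, the dashed median rises from 0.01 to 0.32, and Fzd6 is the only line well below 0 throughout.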

How the data were processed

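Brown adipose tissue RNA of 4 WT and 4 TG mice was sequenced from TruSeq libraries of total RNA, per the labels' protocols. The submitters' processing notes name the build mm10 and, as tools, HISAT2 2.0.5, featureCounts 1.5.0-p3 and bcl2fastq. The authors deposited FPKM, per the file headers with gene length and position. Strand setting, annotation release and the origin of each library's divisor were not given in the sources used. FPKM times length gave whole reads (largest distance 9.08e-09), so reads were recovered for depth and floors of 3 reads. Divided by the divisor that the FPKM imply, the recovered totals were 1.02 to 1.22 for WT libraries and 0.822 to 0.883 for TG libraries.

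The test was limma 3.58.1 under R 4.3.3 (eBayes with trend, two-sided) on log2(FPKM + 1). Genes entered when 4 or more libraries reached 0.5 FPKM, and p-values were adjusted by Benjamini-Hochberg over all of them. Log2 changes are TG minus WT and understate changes of low genes. The Clcf1 level and the mitochondrial read share were compared by exact permutation over 70 assignments. A library is 1 mouse, as far as the labels and the design text say. Intervals of log2 changes were built from the limma standard error, so they include the spread between libraries. The counting interval of the Wnt8b ratio and the floors cover counting error only. On simulated data for this comparison the fit called 33 of 50 genes raised 2-fold, 50 of 50 raised 4-fold, 20 of 45 lowered to 0.5 and 46 of 47 lowered to 0.25. It made 13 false calls among 12157 unchanged genes. The simulation gave every gene the same relative spread, changed only a small part of the genes and held no shift in mitochondrial share. Its rates therefore need not hold for these data.

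The members and the 8 pathway and 10 marker lists were chosen with earlier results of these data known. Any member could be named. From each pathway list up to 5 called genes with the lowest p were named, and any gene that makes up a count of 5 or fewer. From a marker list, genes at 0 and up to 3 with the highest mean were named. Clcf1, Lrp5, Lrp6, Ctnnb1, Tcf7l2, Axin2, Wls, Porcn and Frzb could be named whatever their value.

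Promoter sequences are from RefSeq on GRCm38.p6, and exon numbers from GENCODE M21. Reads of overlapping and antisense genes cannot be told apart without strand. Alternatives covered the pseudocount (0.1, 0.01), the filter (none, 1 FPKM), scaling (trimmed mean of M values, quantile, without mitochondrial and the 20 most abundant genes, all recovered reads), limma's voom on recovered reads, a replicate block, protein-coding genes alone and leaving out libraries. The voom fit without a filter was added after seeing the data. Figures were drawn with matplotlib 3.10.9.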

Additional observations from a re-analysis of the deposited data

Results flagged for a closer look

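In 6 of 114 groups of 4 libraries checked, among the members and the pathway genes named, 1 library stood far from the other 3. Chance gives about 5% of groups, so this is close to that rate. Among the members this was Sfrp4, where WT 1 stood at 0.975 FPKM and the nearest other WT library at 0.231. Without WT 1 Sfrp4 passed the threshold (limma adjusted p = 0.0042).

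In the R-spondin arm, WT 2 stood apart for Lgr6 at 9.135 FPKM, the next being 6.32, and all TG libraries stayed under 0.1 FPKM. Among nuclear effectors WT 1 was low for Bcl9l at 1.32 FPKM against 2.10 or more, and WT 5 was low for Tbl1xr1 at 2.10 FPKM against 2.92 or more. WT 1 was high for Plcb3 at 7.88 FPKM, the next being 5.91. In TG, TG 1 was high for Wisp2 at 14.5 FPKM, the next being 11.0. For Bcl9l, Tbl1xr1, Plcb3, Lgr6 and Wisp2 the call held without each library in turn. The direction of Lgr6 was fixed in these fits by the filter, which it passed through WT alone.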

How the results depend on the processing

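Fzd1, Fzd4, Wnt5a, Sfrp1, Fzd3 and Fzd6 kept their direction and their call under every alternative that could test them. Fzd3 and Fzd6 passed the filter through 1 group alone, so the alternatives that kept this filter are no support for them. With no filter on low values their limma adjusted p were 0.0067 and 0.0096. Of 287 member values under alternatives, 253 kept direction and side of the threshold, 18 lost the call, 10 gained it and 6 turned. The count of members that rose was 7 of 14 tested, but 4 with a filter of 1 FPKM (2569 of 10847 genes rose). It was 11 of the 30 members with reads by voom without a filter (21.6% of genes). The 1 that fell was 0 with the 1 FPKM filter (2547 genes fell), which leaves fewer members to test. Leaving out each library gave 5 to 8 that rose, and 27 to 34 pathway genes that rose with 10 to 14 that fell. Of all 12508 genes, 2278 to 2743 rose and 2291 to 2819 fell in those fits. The 32 of 78 tested pathway genes that rose became 51 by voom without a filter, which tests more of the 124 listed genes. In that fit 21.6% of all genes rose. The 11 that fell became 7 with all reads as divisor (11.5% of all genes) and 7 by voom (11.6%). With all reads as divisor, the log2 ratio of summed levels moved from 0.58 to 1.01 for the ligands and from 1.05 to 1.47 for the frizzleds. Wnt11 turned to 0.021 with that divisor, 0.032 by voom and 0.031 by voom without a filter. Axin2 turned to 0.0077 without abundant genes, 0.138 with all reads, 0.250 by voom and 0.249 by voom without a filter. On leaving out each library, Axin2 ranged from -0.205 to 0.0346, Fzd7 from -0.0400 to 0.126 and Fzd8 from -0.0111 to 0.283. The cause of these changes was not tested. Dkk3 was also lost with a pseudocount of 0.01 (adjusted p = 0.0542), quantile scaling (0.0543) and no filter (0.0816), and Sfrp2 with no filter (0.093).

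Same-numbered libraries did not deviate together (r from -0.238 to 0.0373 over 4 pairs, 0 of 8 libraries correlating best with their own number), so the numbers were not taken as pairs. With the replicate block, 6 members rose and 1 fell, Dkk3 losing its call (adjusted p = 0.0687). Of the pathway genes 28 rose and 11 fell, and over all genes 2389 rose and 2458 fell. The 16 members with reads that were not tested were under the FPKM filter. Wnt9a had the most reads of them, 213 over all libraries, which limits the precision of their values.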
